A study of Canis lupus familiaris with 15 samples.

Results

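DLA-DQA (ENSCAFG00000000812) encodes the alpha chain of the canine MHC class II molecule DQ. Its expression in the corpus luteum (CL) of the dog is described here across all 15 dogs and 4 groups of the RNA-Seq data. It was chosen by its gene identifier and is 1 of the 23630 genes in the table of counts.

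Class II molecules are pairs of an alpha and a beta chain on the cell surface, where they present peptides from endocytosed proteins to CD4+ T cells. They are carried mainly by dendritic cells, macrophages and B cells, and interferon gamma can induce them in other cell types. The invariant chain CD74 guides new class II molecules to the endosomal compartment, where DM loads the peptide and DO modulates DM. Immune cells are known to populate the CL, a temporary gland that secretes progesterone (P4), and in the dog the CL is the source of circulating P4 throughout pregnancy.

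All dogs were clinically healthy cross-breed bitches between 2 and 8 years old, and each replicate is a separate dog with 1 library. The mid-gestation group held 5 untreated pregnant dogs between days 35 and 40 after ovulation. The antigestagen group held 5 pregnant dogs between days 40 and 45 that received aglepristone, a blocker of the P4 receptor, at 10 mg/kg in 2 applications 24 h apart, with collection 24 h after the last one. The luteolysis group held 3 pregnant dogs without treatment, sampled before birth once 3 consecutive P4 measurements, taken every 6 h from day 58, lay below a limit of 2 to 3 ng/ml. The luteal regression group held 2 non-pregnant dogs at day 65. Stage, pregnancy and treatment therefore differ together between several of the groups and cannot be told apart. Total counts per dog ran from 8558743 to 26284315, with a median of 18313707. DLA-DQA itself had between 3046 and 35270 reads, so that counting error was at most 1.81% of its value.

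The study compared the groups to describe the CL when P4 falls before birth, after its receptor is blocked, and in late regression without pregnancy. Levels are given in CPM, the read count of the gene scaled to a common library size with TMM factors. DLA-DQA was at 1951 CPM in luteolysis dog 1, 893 CPM in luteolysis dog 2 and 2044 CPM in luteolysis dog 3. In the antigestagen group it was at 730, 473, 945, 449 and 308 CPM in dogs 1 to 5. At mid-gestation it was at 588, 188, 499, 208 and 327 CPM in dogs 1 to 5. Luteolysis dogs 1 and 3 stood above every other dog, while luteolysis dog 2 lay just below antigestagen dog 3. Both luteal regression dogs were low and close to each other, at 371 and 379 CPM.

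**Figure D1:**
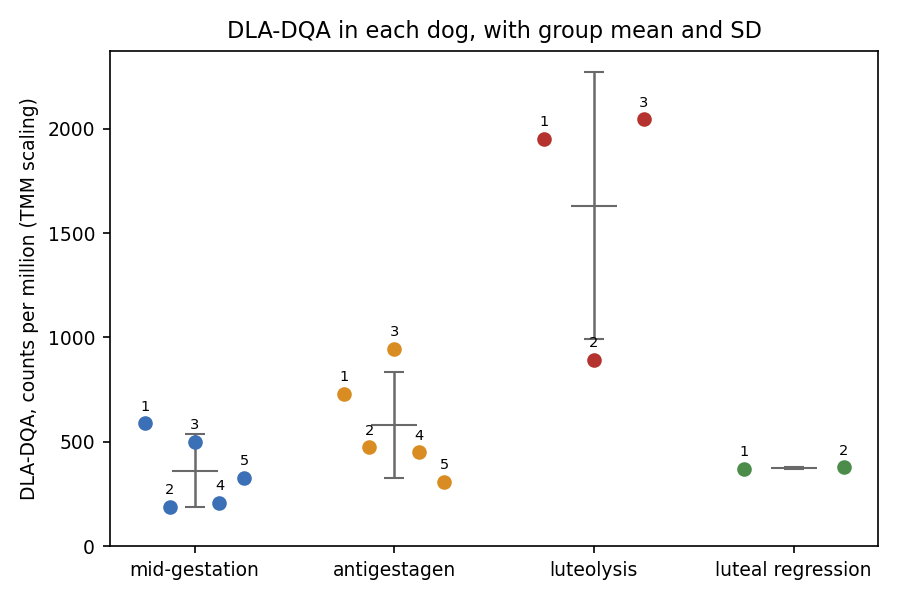
DLA-DQA in CPM for each of the 15 dogs by group; numbers are the dogs, horizontal lines the group means and bars the SD. The luteolysis dogs lie between 893 and 2044 CPM, above all mid-gestation and luteal regression dogs and overlapping the antigestagen group at its highest dog, 945 CPM.

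The group means followed the order luteolysis, antigestagen, luteal regression and mid-gestation. The mean was 1630 ± 639 CPM (SD, n = 3) in luteolysis, 581 ± 254 CPM (SD, n = 5) after antigestagen, 375 ± 5.73 CPM (SD, n = 2) in luteal regression and 362 ± 177 CPM (SD, n = 5) at mid-gestation. Of the neighbours in this order, only luteolysis and antigestagen differed past the threshold. Antigestagen against luteal regression, and luteal regression against mid-gestation, did not differ beyond the spread between dogs. The SD of the log2 CPM of DLA-DQA pooled over groups was 0.651, against a median of 0.412 over all genes, and 74.8% of genes had a smaller one. Between the 2 luteal regression dogs, however, it was 0.022 against a median of 0.161. The pooled SD of 7 other class II genes, described below, ran from 0.532 for DLA-DRB1 to 1.11 for DLA-DOB, so that DLA-DQA lay within their range.

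DLA-DQA was lower at mid-gestation than in luteolysis, with a log2 ratio of −2.17 (SE 0.412, 95% interval −3.05 to −1.29; edgeR quasi-likelihood test, adjusted p = 0.0129), that is, 4.50-fold higher in luteolysis. A gene was called changed when its p-value was below 0.01 and its Benjamini-Hochberg adjusted p-value below 0.1. All 5 mid-gestation dogs lay below all 3 luteolysis dogs, and 5.49% of the 14669 genes tested were separated in this direction. By p-value DLA-DQA was at position 101 of these genes. The call held with each of the 15 dogs left out in turn, also without mid-gestation dog 1, whose group is not certain from its labels (log2 ratio −2.415, adjusted p = 0.0245 by edgeR). Without luteolysis dog 3 it held only narrowly (log2 ratio −1.957, adjusted p = 0.0977 by edgeR, limit 0.1). With only the 2 compared groups in the fit the adjusted p was 0.0665 by edgeR.

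DLA-DQA was also lower in luteal regression than in luteolysis, with a log2 ratio of −2.12 (SE 0.569, 95% interval −3.33 to −0.91, adjusted p = 0.0730 by edgeR), or 4.35-fold higher in luteolysis. Both luteal regression dogs lay below all 3 luteolysis dogs, as was the case in this direction for 19.5% of the 14768 genes tested, a large share with so few dogs. The call was lost without luteolysis dog 3 (log2 ratio −1.87, adjusted p = 0.261) and without either luteal regression dog (log2 ratios −2.11 and −2.14, adjusted p = 0.422 and 0.376 by edgeR). It was also lost with only the 2 compared groups in the fit (adjusted p = 0.228 by edgeR). The 3 contrasts with luteolysis share the same 3 dogs and are not independent of each other.

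Between natural luteolysis and the antigestagen group DLA-DQA was higher in luteolysis, with a log2 ratio of 1.49 (SE 0.410, 95% interval 0.62 to 2.36, adjusted p = 0.0735 by edgeR), or 2.80-fold. The groups overlapped, since antigestagen dog 3 exceeded luteolysis dog 2. The call was lost without luteolysis dog 1 (1.35, adjusted p = 0.0703 with an unadjusted p of 0.0107), without luteolysis dog 3 (1.27, adjusted p = 0.387) and without antigestagen dogs 2, 4 or 5 (1.42, 1.40 and 1.32; adjusted p = 0.124, 0.134 and 0.132 by edgeR). With only the 2 compared groups in the fit it was lost as well (adjusted p = 0.177 by edgeR).

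In the remaining contrasts DLA-DQA did not pass the threshold. With the antigestagen dogs as reference, the log2 ratio of DLA-DQA at mid-gestation was −0.68 (SE 0.365, 95% interval −1.46 to 0.09, adjusted p = 0.766 by edgeR). For luteal regression over antigestagen it was −0.63 (SE 0.497, 95% interval −1.69 to 0.43, adjusted p = 0.505 by edgeR), and for luteal regression over mid-gestation 0.05 (SE 0.479, 95% interval −0.97 to 1.07, adjusted p = 0.971 by edgeR). The dogs of these groups overlapped, and the intervals still allow log2 ratios as far from 0 as −1.46, −1.69 and 1.07. Without antigestagen dog 3 the ratios over antigestagen were −0.436 at mid-gestation and −0.385 in luteal regression. That of luteal regression over mid-gestation was 0.30 without mid-gestation dog 1. It turned negative without mid-gestation dog 2 (−0.069) or 4 (−0.057).

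DLA-DQA was then set beside the genes that work with it: its partner DLA-DQB1, the DR chains DLA-DRA and DLA-DRB1, the invariant chain CD74, the DM chains DLA-DMA and DLA-DMB, and the DO beta chain DLA-DOB. In the annotation UU_Cfam_GSD_1.0 the DR, DQ, DM and DO genes neighbour each other. Of the 9 genes on these lists 8 could be paired with an identifier, all through genes the authors listed as changed in some contrast, so that they are a selected set. Their counts are therefore a description.

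For luteal regression over luteolysis 4 of the 8 genes, DLA-DQA, DLA-DRA, DLA-DRB1 and DLA-DMB, were called lower, beside 3.58% of all genes tested. This count fell to 0 without luteolysis dog 3, without either luteal regression dog and in a fit of the compared groups alone, and was 7 without luteolysis dog 2, by DESeq2 and by limma-voom. Over all genes the count was 754 in the main fit, 5 without luteolysis dog 3 and 0 in the fit of the compared groups alone. It was 1035 without luteolysis dog 2, 1567 by DESeq2 and 3646 by limma-voom. The median log2 ratio of the 8 genes was −1.68, against −0.05 over all genes. For mid-gestation over luteolysis DLA-DQA, DLA-DRA and DLA-DRB1 were called lower, 3 of 8 beside 5.73% of all genes. It was 1 of 8 without luteolysis dog 1 or 3 and in a fit of the compared groups alone. Over all genes the counts there were 2434, 112 and 422, against 1197 in the main fit. The median log2 ratio was −1.07, against −0.02 over all genes. DLA-DQA had the most negative log2 ratio of the 8 there, followed by −1.65 for DLA-DOB, −1.33 for DLA-DRB1 and −1.18 for DLA-DRA. For luteolysis over antigestagen DLA-DQA alone was called higher, 1 of 8 beside 3.12% of all genes. The median log2 ratio was 0.65, against 0.02 over all genes, and the other 7 had positive log2 ratios between 0.28 and 0.91 that missed the threshold. Ratios within dogs, given below, set DLA-DQA against DLA-DRA, DLA-DRB1, DLA-DQB1 and CD74 and not against DLA-DMA, DLA-DMB or DLA-DOB.

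**Figure D2:**
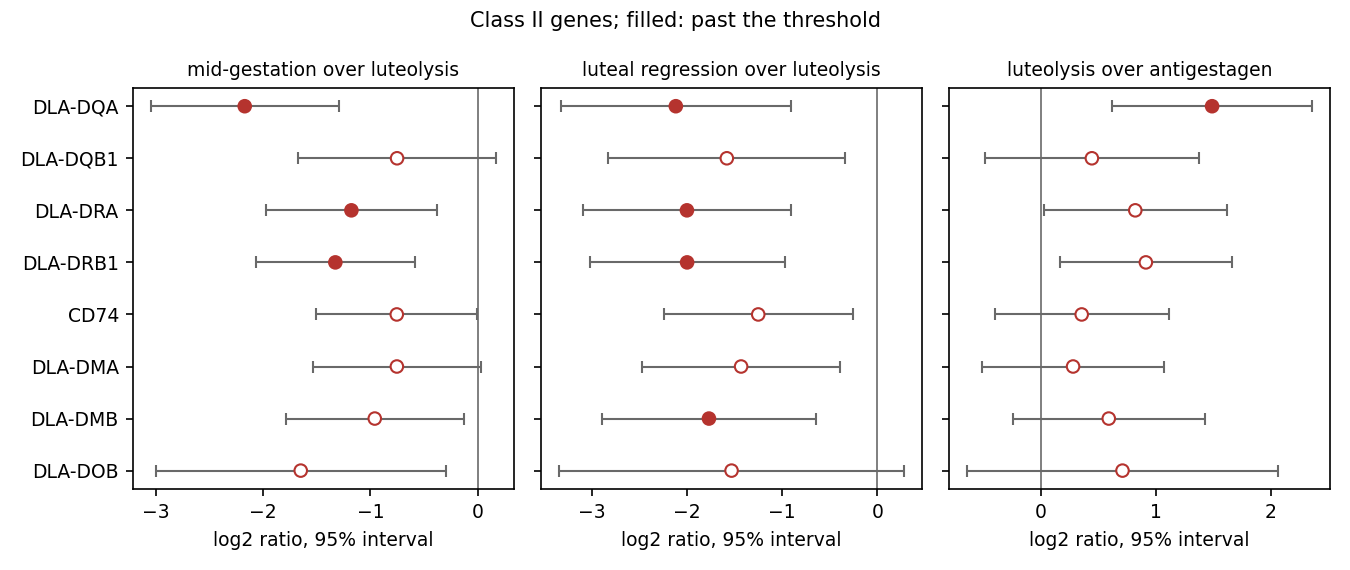
Log2 ratios of DLA-DQA and 7 other class II genes in 3 contrasts with luteolysis, with 95% intervals; filled points passed the threshold. DLA-DQA passed it in each, at −2.17, −2.12 and 1.49, the last 2 no longer in a fit of the compared groups alone.

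In the other contrasts none of the 8 genes, DLA-DQA included, was called by edgeR. For mid-gestation over antigestagen the count was 0 of 8 beside 0% of the 14399 genes tested. At an unadjusted p below 0.05 it was 0 of 8 and 980 of all genes, and DESeq2 and limma-voom called 0 of 8 each and 87 and 18 of all genes. For luteal regression over mid-gestation it was 0 of 8 beside 0% of 14685 genes. In this contrast 0 of 8 and 2073 of all genes had an unadjusted p below 0.05, and DESeq2 and limma-voom called 0 of 8 each and 332 and 2741 of all genes. A fit of the 2 compared groups alone called 0 of 8 and 770 of all genes. For luteal regression over antigestagen it was 0 of 8 beside 0% of 14578 genes. Here 4 of 8 and 2496 of all genes had an unadjusted p below 0.05, DESeq2 called 0 of 8 and 920 of all genes, and limma-voom 6 of 8 and 2408 of all genes. DLA-DQA was called by none of these tools in these 3 contrasts.

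Since both chains are read from the same library, the ratio of DLA-DQA to DLA-DRA reads does not depend on scaling. Gene length was not used, so only the differences of this ratio between dogs are read. There were 0.708, 1.13 and 0.962 DLA-DQA reads per DLA-DRA read in luteolysis dogs 1 to 3, and 0.877 and 0.729 in the luteal regression dogs. At mid-gestation the ratio was 0.480, 0.262, 0.400, 0.397 and 0.704 in dogs 1 to 5, and after antigestagen 0.607, 0.569, 0.916, 0.377 and 0.280. Relative to DLA-DRA, DLA-DQA was thus high in luteolysis and also in luteal regression, where its level itself was low, and the mid-gestation dogs all lay below both. The gap was narrow, 0.704 in mid-gestation dog 5 against 0.708 in luteolysis dog 1. The position of luteal regression depends on the partner, as 3 other denominators chosen after seeing the data show. The difference in log2 ratio for luteal regression over luteolysis was −0.20 with DLA-DRA and −0.14 with DLA-DRB1, with overlap, but −0.65 with DLA-DQB1 and −0.91 with CD74, where both luteal regression dogs lay below all luteolysis dogs. The same difference over mid-gestation was 0.91 with DLA-DRA and 0.79 with DLA-DRB1, without overlap, and 0.89 with DLA-DQB1 and 0.59 with CD74, where the dogs overlapped. The mid-gestation dogs lay below the luteolysis dogs with each of the 4 denominators. Luteolysis over antigestagen gave 0.86 with DLA-DRA and 0.68 with DLA-DRB1, with overlap, but 1.23 with DLA-DQB1 and 1.29 with CD74, without overlap (exact p = 0.0893, 0.214, 0.0536 and 0.0357; adjusted p = 0.268, 0.429, 0.161 and 0.107).

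**Figure D3:**
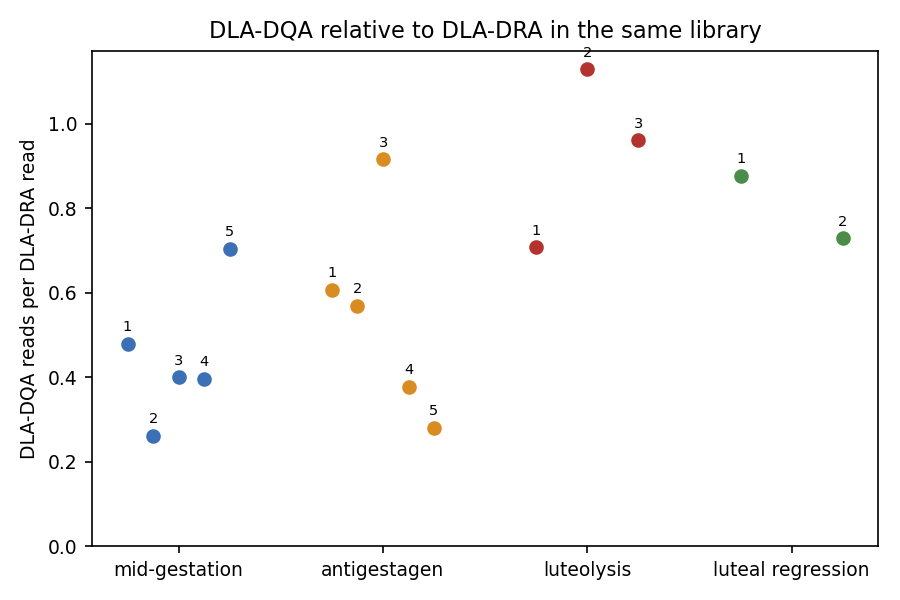
DLA-DQA reads per DLA-DRA read in each of the 15 libraries by group; numbers are the dogs. The mid-gestation dogs reach 0.704 and the luteolysis dogs begin at 0.708, while the antigestagen dogs spread from 0.280 to 0.916.

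The log2 of this DLA-DQA to DLA-DRA ratio was lower by 1.11 at mid-gestation than in luteolysis (difference −1.11; two-sided exact permutation test, p = 0.0357, adjusted over the 6 contrasts p = 0.214). It was higher by 0.86 in luteolysis than after antigestagen (exact p = 0.0893, adjusted p = 0.268) and by 0.91 in luteal regression than at mid-gestation (exact p = 0.143, adjusted p = 0.286). The 3 other contrasts gave −0.20 for luteal regression over luteolysis, −0.25 for mid-gestation over antigestagen and 0.66 for luteal regression over antigestagen (exact p = 0.5, 0.5 and 0.286, adjusted p = 0.5, 0.5 and 0.429). Leaving out 1 dog moved the smaller differences far: that for mid-gestation over antigestagen to −0.075 without mid-gestation dog 2, −0.037 without antigestagen dog 3, −0.431 without mid-gestation dog 5 and −0.464 without antigestagen dog 5, and that for luteal regression over luteolysis to −0.385 and −0.046 without luteolysis dogs 1 and 2 and to −0.332 and −0.066 without luteal regression dogs 1 and 2. None passed the correction, but most of these groups are too small for it. The smallest p possible is 0.1 for luteal regression over luteolysis, 0.0476 for the 2 other contrasts with luteal regression and 0.0179 for mid-gestation over luteolysis and for luteolysis over antigestagen. A single contrast at 0.0179 adjusts to 0.107, so that in these 5 contrasts the test says little on whether DLA-DQA changed apart from DLA-DRA. Mid-gestation over antigestagen could have passed (smallest p 0.00794, adjusted 0.0476) and did not.

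Across the 15 dogs DLA-DQA varied together with DLA-DRA, DLA-DRB1, CD74 and DLA-DQB1. Of the 6 partners listed for this test, which included CIITA and PTPRC, only these 4 had an identifier. These 4 have one because the authors listed them as changed between the same groups of dogs, so that the p-values below, which include the differences between groups, are those of selected genes. For log2 CPM Pearson's r with DLA-DRA was 0.768 (permutation p = 0.00101, adjusted p = 0.00202) and Spearman's rho 0.682 (permutation p = 0.00667, adjusted p = 0.0163). With DLA-DRB1 r was 0.777 (permutation p = 6.4e-04, adjusted p = 0.00202) and rho 0.664 (permutation p = 0.00821, adjusted p = 0.0163). With CD74 r was 0.705 (permutation p = 0.00343, adjusted p = 0.00457) and rho 0.636 (permutation p = 0.0122, adjusted p = 0.0163). With the differences between groups included, the loosest relation of DLA-DQA was that with its own partner DLA-DQB1, with r = 0.602 (permutation p = 0.0179, adjusted p = 0.0179) and rho 0.543 (permutation p = 0.0399, adjusted p = 0.0399). With those differences left out, as given below, the lowest r was 0.530, with DLA-DRB1, against 0.543 with DLA-DQB1. The difference between these coefficients was not tested.

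These relations rest in part on luteolysis dogs 1 and 3, the 2 dogs farthest from the median of DLA-DQA. Without them r was 0.502 with DLA-DRA, 0.502 with DLA-DRB1, 0.462 with CD74 and 0.290 with DLA-DQB1, and none passed (permutation p = 0.0825, 0.0818, 0.114 and 0.334). As deviations from the group means, which leave out the differences between groups, r was 0.642, 0.530, 0.654 and 0.543 in the same order (adjusted permutation p = 0.0197, 0.0437, 0.0197 and 0.0437). Spearman's rho was then 0.607 with DLA-DRA and 0.611 with CD74 (adjusted permutation p = 0.0376 each). It was 0.457 with DLA-DRB1 and 0.404 with DLA-DQB1, which did not pass (adjusted permutation p = 0.12 and 0.139). The permutations of these deviations took the 15 dogs as free values, although the means of 4 groups had been removed. Their p-values, for r and for rho, are therefore too small, and none is read as passing. Luteolysis dog 2 departs from the pair: its DLA-DQA, at 893 CPM, exceeded that of all mid-gestation dogs, while its DLA-DRA, at 788 CPM, and DLA-DQB1, at 207 CPM, lay within their range.

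**Figure D4:**
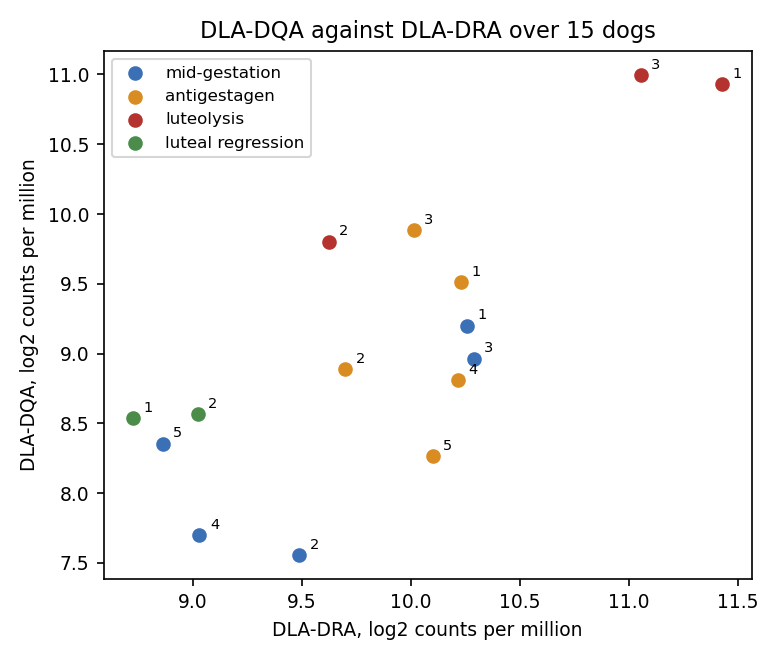
Log2 CPM of DLA-DQA against that of DLA-DRA in 15 dogs, coloured by group; numbers are the dogs. Pearson's r is 0.768 over all dogs and 0.502 without luteolysis dogs 1 and 3, the pair at the upper right.

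Among all 14921 other genes in the fit, DLA-DRB1 and DLA-DRA were at positions 52 and 59 by Pearson's r with DLA-DQA, CD74 at 189 and DLA-DQB1 at 687. DLA-DMB, DLA-DOB and DLA-DMA, which were not among the tested partners, were at 219, 240 and 319 (r = 0.696, 0.690 and 0.674). The 10 genes with the highest r were TMEM150C, ENSCAFG00000013067, CCNYL1, ENSCAFG00000018904, YOD1, PAQR5, RAB31, REEP1, SNAP25 and DGKD, with r between 0.827 and 0.850. The 5 with the lowest were ENSCAFG00000031808, PCMTD2, SRBD1, PSRC1 and INCENP, with r between −0.892 and −0.852. These are the extremes of a search over all genes and are given as a description, without a p.

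Levels of DLA-DQA were last set beside markers of cell types. In these tissue samples a change in the number of class II bearing cells and a change in DLA-DQA RNA per cell cannot be told apart. Of the 103 listed genes 36 had an identifier. All 36 were among the genes the authors listed as changed in some contrast, so that they are a selected set. Genes without an identifier, among them the whole B cell list, were not examined. Of the 8 regulators of class II transcription 1 had an identifier (RFX5, between 10.9 and 26.5 CPM). Of the 8 luteal genes 1 had one (PRLR, between 65.8 and 175 CPM in the 15 dogs), so that the tissue label could be checked on that gene alone. PRLR, the prolactin receptor, went the other way from DLA-DQA between luteolysis, at 74.8, 82.9 and 95.2 CPM in dogs 1 to 3, and antigestagen, at 121 to 175 CPM. Its log2 ratio of −0.86 missed the threshold by edgeR (adjusted p = 0.1) and was called by DESeq2 and limma-voom, and its part in the DLA-DQA result was not tested.

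The 3 dendritic cell markers with an identifier (CCR7, BATF3 and CD1A6, of 8 listed) summed to 39.7, 222 and 220 CPM in luteolysis dogs 1 to 3, and to between 10.1 and 32.1 CPM in the other dogs. In luteolysis dogs 2 and 3 most of this was CCR7, a homing receptor of mature dendritic cells and some lymphocytes, at 207 and 198 CPM. In luteolysis dog 1 CCR7 was at 0.676 CPM and CD1A6 had no read, while BATF3, a transcription factor of some dendritic cells named here after its values were seen, was at 39.0 CPM, the highest of the 15 dogs. Luteolysis dogs 1 and 3, with the highest DLA-DQA, thus differed in which of these markers was high. The 6 macrophage markers (of 13 listed; C1QB the most abundant) summed to between 382 and 441 CPM in luteolysis, within the range of 333 to 1037 CPM over the mid-gestation and antigestagen dogs, and to 169 and 212 CPM in luteal regression. MRC1 made up most of the sum in luteolysis dog 2, at 207 of 400 CPM, and C1QB with C1QC in every other dog. The members moved in opposite directions: for mid-gestation over luteolysis the log2 ratio was 0.99 for C1QB and 0.90 for C1QC, but −0.62 for TYROBP, −0.56 for MRC1, −0.33 for AIF1 and −0.08 for ITGAM. None of the 6 was called there by edgeR, 1 had an unadjusted p below 0.05, and DESeq2 and limma-voom called 0 and 3. Over all 14669 genes the counts were 1197 by edgeR, 2968 at such a p, 1748 by DESeq2 and 3220 by limma-voom. C1QC, TYROBP and AIF1 were named after their values were seen. For luteal regression over luteolysis the 6 macrophage markers had negative log2 ratios, as DLA-DQA did (median −1.35; 2 called by edgeR, 4 with an unadjusted p below 0.05, 4 called each by DESeq2 and limma-voom). Over all 14768 genes the counts were 754 by edgeR, 2770 at such a p, 1567 by DESeq2 and 3646 by limma-voom. Over mid-gestation the log2 ratios of the 6 markers were negative too (median log2 ratio −1.3; 0 called by edgeR, 5 with an unadjusted p below 0.05, 3 called by DESeq2 and 6 by limma-voom), while that of DLA-DQA was 0.05. Over all 14685 genes the counts were 0 by edgeR, 2073 at such a p, 332 by DESeq2 and 2741 by limma-voom. The dogs with the highest macrophage sum, antigestagen dogs 4 and 5, had 449 and 308 CPM of DLA-DQA, the lowest of their group. The 2 T cell markers CD2 and CD3E (of 7 listed) summed to between 2.55 and 4.88 CPM in luteolysis and to between 5.23 and 19.7 CPM in the other dogs, so that they were lowest in the group with the highest mean of DLA-DQA. The part of any of these cell types in the DLA-DQA result was not tested.

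By edgeR, DLA-DQA was called lower in luteal regression than in luteolysis together with CCR7 (1 of 2 dendritic cell markers, CD1A6 left out). ITGAM and MRC1 (2 of 6 macrophage markers) and PECAM1 and TEK (2 of 3 endothelial markers) were called lower too. So was the class I gene DLA-79 (1 of 3), beside 3.58% of all genes called lower (1.52% were called higher). At mid-gestation against luteolysis DLA-DQA was called lower together with CCR7 (1 of 2 dendritic cell markers, CD1A6 left out) and the endothelial PECAM1 (1 of 3). The leukocyte gene LCP1 (1 of 2) and the kinase JAK1 of interferon signalling (1 of 1) were lower too, beside 5.73% of all genes. CD1A6 was left out because it reached the count filter only through luteolysis, the group where it was high. CD83 of the costimulation list (1 of 3) and CD2 (1 of 2 T cell markers) were higher, beside 2.43% of all genes. The other 2 costimulation genes, CD80 and CD86, named after their values were seen, had log2 ratios of −1.09 and −0.86. Both missed the threshold, with an unadjusted p below 0.05. In luteolysis over antigestagen DLA-DQA was called higher with CCR7 (1 of 2, CD1A6 again left out), beside 3.12% of all genes. CD2 (1 of 2) and the class I gene DLA88 (1 of 3) were lower, beside 1.62% of all genes. VWF, the most abundant endothelial marker, was called by edgeR in none of these contrasts. Its log2 ratios were −1.13, −0.10 and −0.21 in the order given. For luteal regression over luteolysis DESeq2 and limma-voom each called 3 of 3 endothelial markers, VWF among them. With 1 to 6 genes a list, all listed by the authors as changed in some contrast, nothing is read from these counts. The granulocyte genes S100A9 and CSF3R, the endosomal protease CTSB and RFX5 were called with DLA-DQA by edgeR in 0 of these 3 contrasts. For luteal regression over luteolysis, however, both granulocyte genes and CTSB had an unadjusted p below 0.05 and were called by DESeq2 and limma-voom, RFX5 by neither. The leukocyte list (2 of 2 by each) and the costimulation list (2 and 3 of 3) also had calls there by DESeq2 and limma-voom. Neither list had a call by edgeR, each with 2 genes at an unadjusted p below 0.05. The costimulation genes did not share a direction: the log2 ratio was 0.61 for CD83, but −1.37 for CD80 and −1.41 for CD86. Of the 2 T cell markers, which had positive log2 ratios there, DESeq2 called 0 and limma-voom 1. Over all 14768 genes the counts were 1567 by DESeq2, 3646 by limma-voom and 2770 at such a p. For mid-gestation over luteolysis 1 of 2 granulocyte genes and RFX5 had such a p and were called by DESeq2, and 0 by limma-voom. Over all 14669 genes the counts were 1748 by DESeq2, 3220 by limma-voom and 2968 at such a p. For luteolysis over antigestagen the count of S100A9, CSF3R, CTSB and RFX5 was 0 by every tool and at an unadjusted p below 0.05. There DESeq2 called 1486 and limma-voom 2833 of all 14473 genes, and 2634 had such a p. Lists with 0 calls by edgeR there had, by DESeq2 and limma-voom in either direction, 2 and 1 of 6 macrophage, 1 and 2 of 3 endothelial, 0 and 2 of 3 costimulation, 0 and 1 of 2 leukocyte genes and 0 and 1 for JAK1 (2, 1, 1, 1 and 1 with an unadjusted p below 0.05).

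**Figure D5:**
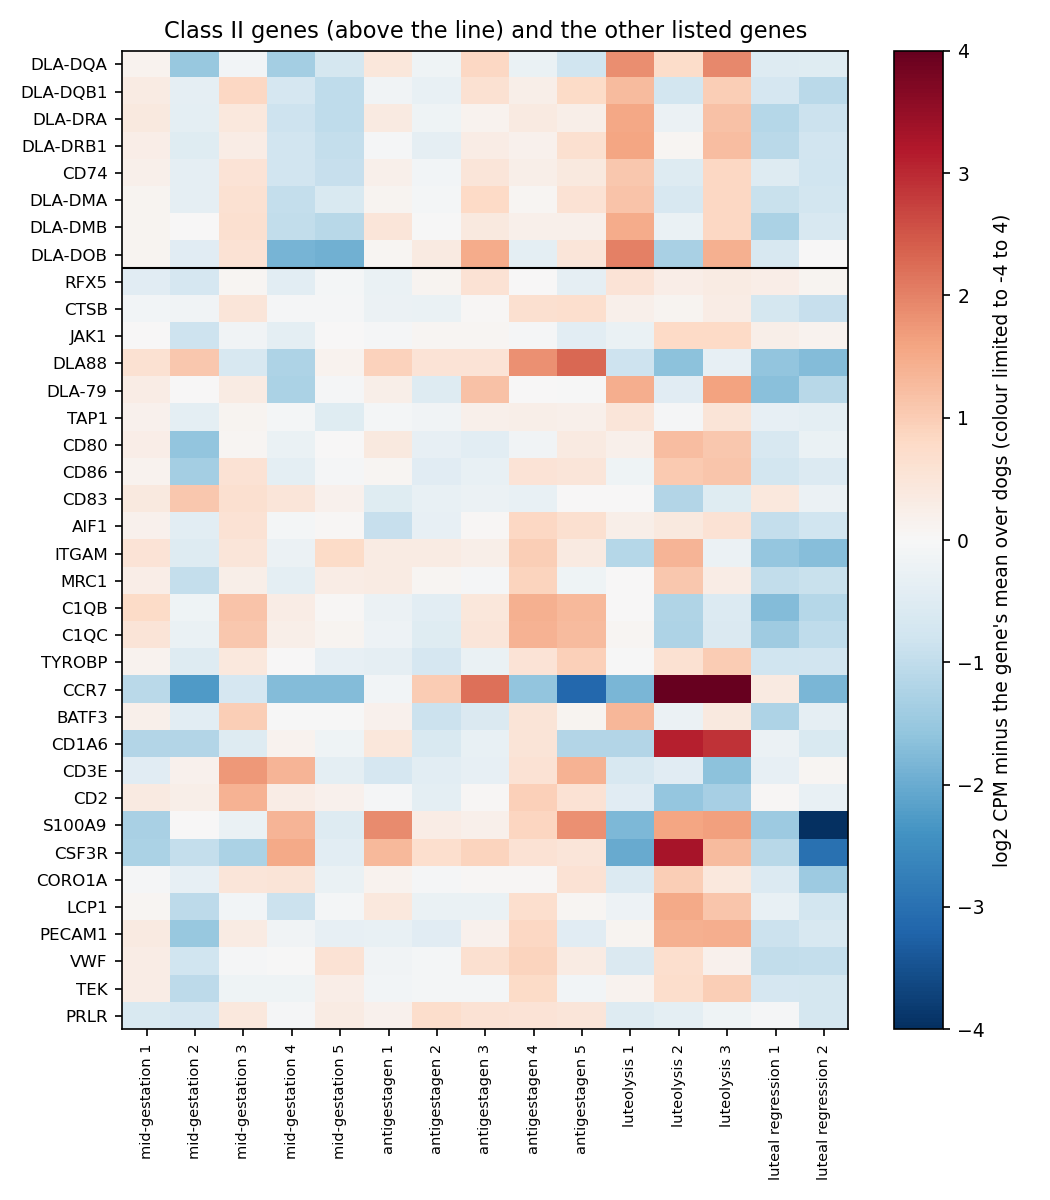
Log2 CPM of DLA-DQA, 7 other class II genes (above the line) and the other listed genes with an identifier, each minus its mean over the 15 dogs; columns are dogs, red is above and blue below the mean. DLA-DQA is highest in luteolysis dogs 1 and 3, and CCR7 in luteolysis dogs 2 and 3.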

How the data were processed

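Total RNA of the CL (RIN 7.2 to 9.5) was poly-A selected, made into libraries that do not mark strand and read from a single end at 125 bp. Per the submitters' processing notes, reads were aligned to CanFam3.1 with STAR 2.5.1b and counted with featureCounts; the authors deposited the raw count of each gene and dog. The 3148 counts of at least 10000, 5 of them of DLA-DQA, carry 4 significant digits and were used as they stand. Class II genes are polymorphic and similar to each other, and reads were compared with 1 reference sequence, so that a dog's alleles can change how many reads are counted; DLA-DQA counts are uncertain to that extent, and this was not tested.

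Groups came from the sample labels; for mid-gestation dog 1, highest of its group in DLA-DQA, the title and condition were followed, though another label field places it with the antigestagen dogs, so that its group is not certain; DLA-DQA contrasts were also run without it. A further luteal regression dog was not analysed here. Dogs of a group differed far beyond sampling noise (chi-squared per degree of freedom from 33.1 to 269). The 14922 genes whose count averaged 10 or more in any group entered 1 fit over all 15 dogs (R 4.3.3, edgeR 4.0.16, TMM scaling). Each contrast was a two-sided quasi-likelihood test of the genes that reached this average in 1 of its groups, with Benjamini-Hochberg adjustment. The SE is the absolute log2 ratio divided by the square root of F. Log2 CPM used a prior count of 2. The fit was tested on simulated data with known changes. For luteal regression over luteolysis it called 22% of 2-fold and 75% of 4-fold changes. For mid-gestation over luteolysis it called 46% and 92%, for luteolysis over antigestagen 47% and 96%, and for mid-gestation over antigestagen 56% and 95%. Many 2-fold changes were therefore missed. Ratios within dogs were compared by exact permutation and correlations by 100000 permutations (scipy 1.17.1, numpy 2.4.6), adjusted over 6 contrasts and 4 partners; CIITA and PTPRC had no identifier. Alternatives used DESeq2 1.42.0 and limma 3.58.1.

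Names came from the additional files of the study and RefSeq (2985 of 3261 identifiers), hence only for genes listed there as changed. The members and lists were chosen with earlier results of these data known. Genes were named by rule: DLA-DQA and class II genes always, of other lists the members called in a contrast (at most 4) and the most abundant one (CD3E, CSF3R and others marked in the text were named besides), and the 10 most and 5 least correlated genes. Promoter and protein sequences were not used here.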

Additional observations from a re-analysis of the deposited data

Results flagged for a closer look

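The difference of DLA-DQA between natural luteolysis and luteal regression was set against that between antigestagen and mid-gestation, a test chosen after seeing the data. The log2 ratio of luteolysis over luteal regression exceeded that of antigestagen over mid-gestation by 1.44 (SE 0.651, adjusted p = 0.381 over all genes by edgeR), and DESeq2 gave 1.41 (adjusted p = 0.267) and limma-voom 1.16 (adjusted p = 0.164). It drew attention because its unadjusted p lay below 0.05 by edgeR and DESeq2, though not by limma-voom, and it does not pass the correction by any of them. With each dog left out it ran from 1.18 to 1.73. Class II levels and the DLA-DQA to DLA-DRA ratio were each examined within the mid-gestation and the antigestagen group, of 5 dogs each. In these 18 checks 0 dogs stood apart by Dixon's criterion of 0.71. The luteolysis and luteal regression groups are too small for that check.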

How the results depend on the processing

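The call of DLA-DQA for mid-gestation over luteolysis held under all 9 other settings and with each of 15 dogs left out (log2 ratio −2.47 to −1.96). It was narrow without luteolysis dog 3 (adjusted p = 0.0977 by edgeR). With only the dogs of the 2 compared groups in the fit, DLA-DQA was no longer called for luteal regression over luteolysis (−2.13, adjusted p = 0.228) or luteolysis over antigestagen (1.48, adjusted p = 0.177), and the class II counts were 0, 1 for mid-gestation over luteolysis, and 0. With an adjusted p below 0.05 both calls were lost at unchanged log2 ratios (−2.12 and 1.49; counts 0 and 0). DESeq2 and limma-voom called 7 class II genes each for luteal regression over luteolysis, and limma-voom 6 for luteal regression over antigestagen. With dogs left out the DLA-DQA log2 ratio for luteal regression over luteolysis lay between −2.42 and −1.87 (class II genes 0 to 7), that for luteolysis over antigestagen between 1.27 and 1.78 (0 to 1), that for mid-gestation over antigestagen between −0.927 (without mid-gestation dog 1; limma-voom with all dogs −0.999, adjusted p = 0.182) and −0.436 (without antigestagen dog 3), that for luteal regression over antigestagen between −0.761 and −0.385 (the latter without antigestagen dog 3), and that for luteal regression over mid-gestation between −0.069 and 0.30 (the latter without mid-gestation dog 1), turning negative without mid-gestation dogs 2 (−0.069) or 4 (−0.057). The class II count for mid-gestation over luteolysis ran from 1 to 4, with 1 without luteolysis dog 1 or 3. A lone luteal regression dog was assumed to vary like the other groups. Without the 2 dogs farthest from the median, r fell to 0.502 (DLA-DRA), 0.502 (DLA-DRB1), 0.290 (DLA-DQB1) and 0.462 (CD74). The cause of these changes was not tested. The difference in the log2 DLA-DQA to DLA-DRA ratio kept its sign in each contrast under these settings, also with 3 other denominators chosen after seeing the data, but not its size (−0.464 to −0.037 for mid-gestation over antigestagen). Counts of all genes called depended more on the setting: for luteal regression over luteolysis 754 genes, 0 in a fit of the compared groups only, 197 with an adjusted p below 0.05, 1567 by DESeq2 and 3646 by limma-voom, for mid-gestation over luteolysis 1197 against 422, 583, 1748 and 3220, and for luteolysis over antigestagen 687 against 3, 268, 1486 and 2833. Without luteolysis dog 3 these counts fell to 5, 112 and 6, and without luteolysis dog 1 they rose to 1593, 2434 and 2169. Shifts over 1.5 times also came, for luteal regression over luteolysis, from either luteal regression dog (0 and 1), antigestagen dog 3 (460) and mid-gestation dog 4 (443), for mid-gestation over luteolysis from luteolysis dog 2 (474) and mid-gestation dogs 3 and 4 (735 and 703), and for luteolysis over antigestagen from luteolysis dog 2 (229) and antigestagen dogs 3 and 5 (320 and 437). Upper-quartile scaling moved the median log2 ratio of all genes for luteal regression over luteolysis from −0.05 to 0.06 and the share of higher calls from 29.8 to 42.9%. Correlations with CIITA and PTPRC and the search of promoters were not run.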
